A study of Mus musculus with 10 samples.

Results

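Aminoacyl-tRNA synthetases join each amino acid to the tRNAs that carry its codons, and 39 genes of this machinery were followed in mouse tumours grown on an arginine-deficient or a normal diet. The list was taken by gene symbol from a table of 21849 genes: 20 genes for cytosolic synthetases, 16 for mitochondrial synthetases (symbols ending in 2) and 3 for scaffold proteins, Aimp1, Aimp2 and Eef1e1. The choice used symbols and no expression values, though earlier results of these data were known when the list was made, and all 39 were found in the table; Mars1 stands there under its older symbol Mars. CT26 cells, a colon carcinoma line derived from BALB/c mice, were placed under the skin of BALB/c mice that were 5 weeks old when diets were assigned. The 5 mice of the tested diet ate food without arginine but of equal calories, and the 5 others ate a normal diet; either diet began 1 week before implantation, and tumours were taken on day 20. Both diets thus share the strain, the tumour line, the site and the day, and RNA came from whole tumours, so host cells were sequenced along with the implanted line. In such bulk samples fewer cells of a type and less RNA per cell cannot be told apart.

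The cytosolic enzymes charge tRNAs for translation on ordinary ribosomes, whereas a separate set of nuclear genes makes the enzymes imported into mitochondria. Gars and Kars are exceptions, each giving both a cytosolic and a mitochondrial enzyme from the same gene. Several cytosolic enzymes sit with Aimp1, Aimp2 and the protein of Eef1e1 in a multi-synthetase complex. When an amino acid runs short, uncharged tRNA activates the kinase GCN2, the factor ATF4 is made, and many genes for cytosolic synthetases are known among ATF4 targets. For a diet without arginine the enzyme that handles arginine itself is Rars in the cytosol and Rars2 in mitochondria.

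Library totals ran from 13948936 to 31530123 counts on the deficient diet and from 12013178 to 22908827 on the normal diet. The synthetase genes were well covered: the lowest count in any library was 71, for Pars2, and the highest was 18424, for Gars. All 39 passed the filter on low counts and were tested among 12929 genes. Arginine-deficient replicate 3 stood apart, with 9.97% of counts from mitochondrially encoded genes, against 1.67% to 4.44% elsewhere, and 5765 CPM of skeletal muscle transcripts. CPM are counts scaled to a common library size, on the library totals for cell type markers in this paragraph and with TMM normalization factors for the synthetase genes. Muscle transcripts also reached 1570 CPM in replicate 4 of the deficient diet and 567 CPM in replicate 4 of the normal diet, and at most 72.0 CPM in the other libraries. Of the 10 markers of colon epithelium, Krt20 was high (83.0 to 215 CPM on the deficient and 186 to 264 CPM on the normal diet), while Epcam had at most 9 counts and Cdx1 at most 1 count in any library. All 8 tested muscle genes were higher on the deficient diet (median log2 fold change 3.58, Acta1 at 0 everywhere). Deficient replicates 1, 2 and 5, however, had only 5.26, 8.62 and 6.60 CPM of muscle transcripts, against 6.43 to 567 CPM on the normal diet. All 4 tested red cell genes were lower (median -1.69, Alas2 at 0 everywhere), with sums of 55.9 to 106 CPM on the deficient diet, against 104 to 612 CPM on the normal diet. Of 7 endothelial genes 6 were lower (median -0.16), with sums of 172 to 216 CPM on the deficient diet, against 189 to 240.4 CPM on the normal diet. The tested macrophage, T cell and fibroblast genes had medians of -0.03, 0.17 and -0.06. None of these marker genes was called by edgeR, where 0.0541% of all tested genes were. An unadjusted p under 0.05 was found for 3 of 8 muscle, 4 of 4 red cell, 2 of 7 endothelial and 1 of 6 epithelial genes. For macrophage, T cell and fibroblast genes it was found for 1 of 10, 0 of 9 and 0 of 8. Over all tested genes 6.74% had one. The epithelial gene was Cdh1, which was higher, while 4 of the 6 tested epithelial genes were lower (median -0.33). The part of these cell types in the synthetase values was not tested.

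The diet comparison asks which transcripts of a tumour respond to loss of dietary arginine. Cytosolic synthetase genes lay mostly higher on the deficient diet: 17 of 20 had log2 fold changes above 0, and their median was 0.22, where the median of all tested genes was 0.00123 and 50.3% of them were positive. Mitochondrial synthetase genes lay on both sides, 8 above 0 and 8 below it, and their median was 0.03. The 3 scaffold genes were all higher, with a median of 0.37. Without deficient replicate 2 the cytosolic median was 0.14 with 15 of 20 genes higher, and without the 3 libraries richest in muscle transcripts it was 0.37 with 18 of 20 higher. None of the 39 genes passed the test (edgeR quasi-likelihood, adjusted p under 0.05 over all tested genes), where 0.0541% of all tested genes did. At an unadjusted p under 0.05, 8 of 39 members were found, where 6.74% of all tested genes were: 7 members were higher (3.54% of all genes were) and 1 was lower (3.19% of all genes were). Other fits called more members and more genes in all. DESeq2 called 1 member (Rars), where 0.949% of the genes with an adjusted p were called. Limma voom with sample weights called 4 (Gars, Nars, Rars and Tars), where 2.88% of all tested genes were. EdgeR with covariates for the GC and length trends of libraries called 2 (Farsb and Rars), where 1.18% of all tested genes were. Without arginine-deficient replicate 3, 14 members in place of 8 had an unadjusted p under 0.05, where 10.6% in place of 6.74% of all tested genes did, and again none passed.

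**Figure D1:**
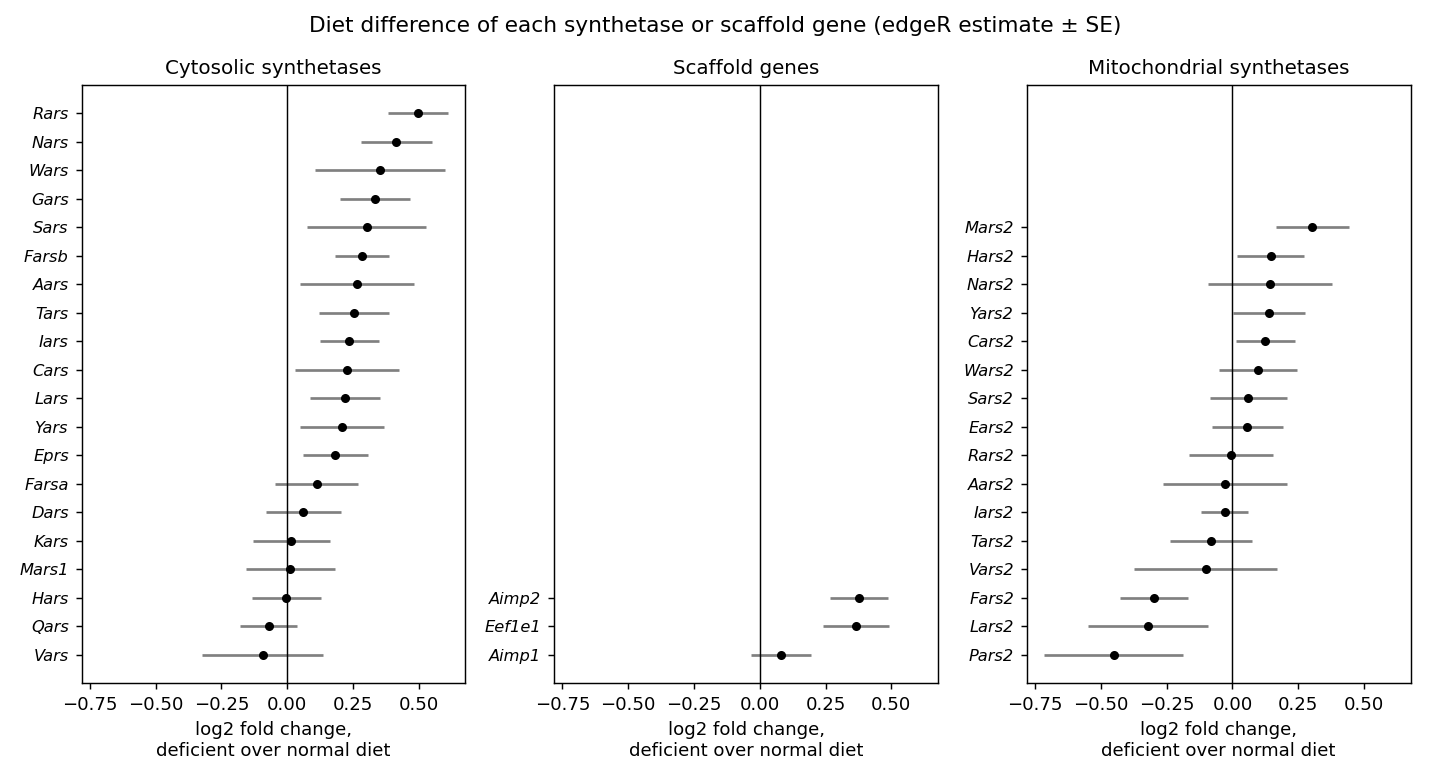
Log2 fold change (deficient over normal diet, edgeR estimate) of each gene on the horizontal axis, with bars of 1 standard error, for cytosolic synthetases, scaffold genes and mitochondrial synthetases. Rars lies highest at 0.50 and Pars2 lowest at -0.45; 17 of 20 cytosolic points and 8 of 16 mitochondrial points are right of 0.

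Arginyl-tRNA synthetase, Rars, differed most of the 39. It had 327, 335, 264, 263 and 339.7 CPM in deficient replicates 1 to 5, against 213, 213, 214, 245 and 197 CPM in normal-diet replicates 1 to 5. Every deficient library lay above every normal-diet library, and the lowest pair of deficient values belonged to replicates 3 and 4, those richest in muscle transcripts. On the normal diet the library richest in muscle transcripts, replicate 4, had the highest value, 245 CPM. The part of muscle in these values was not tested. Deficient libraries had a mean of 306 ± 38.8 CPM, against 217 ± 17.7 CPM for normal-diet libraries (n = 5 each, SD), or 0.50 as a log2 fold change (SE 0.11), with an edgeR adjusted p = 0.235. By unadjusted p it was number 46 of all 12929 tested genes. It kept its sign in all 22 alternative fits, with log2 fold changes from 0.44 to 0.68, and its adjusted p was 0.0107 by DESeq2, 0.0112 by limma voom and 0.0433 by edgeR with library trends as covariates, over a range of 0.0107 to 0.889.

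For Rars2, the mitochondrial arginyl enzyme, no difference was detected. It had 25.2, 22.2, 37.0, 31.7 and 33.2 CPM in the deficient libraries, against 29.6, 31.4, 28.6, 36.2 and 24.1 CPM in the normal-diet libraries. The groups overlapped fully, with means of 29.9 ± 6.02 CPM for the deficient libraries, against 30.0 ± 4.37 CPM for the normal diet (n = 5 each, SD; edgeR adjusted p = 0.999 for a log2 fold change of -0.01, SE 0.16). Per kilobase of exonic length the ratio of Rars to Rars2 was 9.22 ± 2.81 on the deficient and 6.25 ± 0.488 on the normal diet (SD, n = 5 each), and the lowest deficient ratio, 6.12, fell inside the normal-diet range, which began at 5.82.

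Asparaginyl-tRNA synthetase, Nars, came next among the cytosolic enzymes. It had 568, 664, 409, 545 and 625 CPM in the deficient libraries, against 409.7, 403, 406, 413 and 476 CPM in the normal-diet libraries. Replicate 3 was the exception among deficient libraries, lying inside the normal-diet range while the other 4 lay above it (edgeR adjusted p = 0.475 for a log2 fold change of 0.42, SE 0.13, and 0.00711 by limma voom). Glycyl-tRNA synthetase, Gars, the most abundant member per length, had 585, 603, 423, 462 and 654 CPM in the deficient libraries, against 418, 430.3, 423, 415 and 477 CPM in the normal-diet libraries. Deficient replicates 3 and 4 overlapped the normal diet and the other 3 did not (edgeR adjusted p = 0.651 for a log2 fold change of 0.33, SE 0.13).

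The phenylalanyl enzyme is built from subunits made by Farsa and Farsb. Farsb had 129.6, 119, 144, 117 and 127 CPM in the deficient libraries, against 99.6, 114, 99.2, 116 and 94.0 CPM in the normal-diet libraries. All deficient libraries lay above all normal-diet libraries, and replicate 3 was the highest of them (edgeR adjusted p = 0.579 for a log2 fold change of 0.28, SE 0.10). Farsa had a mean of 103 ± 15.1 CPM in deficient libraries, against 95.3 ± 20.6 CPM in normal-diet libraries (n = 5 each, SD), which is 0.11 as a log2 fold change (SE 0.16). Without deficient replicate 3 the log2 fold changes were 0.24 for Farsb and 0.20 for Farsa, and by limma voom they were 0.26 and 0.27. The difference between the 2 genes was not tested.

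Tryptophanyl-tRNA synthetase, Wars, is known for its induction by interferon gamma. It had 269, 457, 179, 199 and 304 CPM in the deficient libraries, against 216, 197, 179.5, 191 and 318 CPM in the normal-diet libraries. Replicate 2 alone exceeded the normal-diet libraries, and without it the log2 fold change of 0.35 (SE 0.25, adjusted p = 0.920 by edgeR) dropped to 0.11; without normal-diet replicate 5 it was 0.53. In the same libraries the 17 tested genes of the interferon gamma response had 12 higher and 5 lower, none called and a median of 0.07, and Cd274, the gene for PD-L1, had the smallest p (edgeR adjusted p = 0.766 for a log2 fold change of 0.53, SE 0.26).

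At the low end of the cytosolic set stood the valyl enzyme Vars, with 367, 471, 236, 547 and 524 CPM in the deficient libraries, against 529, 334, 454, 370.0 and 599 CPM in the normal-diet libraries. The diets overlapped, though deficient replicate 3 lay below every normal-diet library (edgeR adjusted p = 0.998 for a log2 fold change of -0.09, SE 0.23). The remaining cytosolic enzymes fell between these. Sars (serine), Aars (alanine), Tars (threonine), Iars (isoleucine), Cars (cysteine), Lars (leucine), Yars (tyrosine) and Eprs (glutamate and proline) had log2 fold changes from 0.30 down to 0.18. Farsa, Dars (aspartate), Kars (lysine), Mars1 (methionine), Hars (histidine) and Qars (glutamine) had log2 fold changes from 0.11 down to -0.07, and Hars and Qars were, with Vars, the only cytosolic genes below 0 by edgeR. In 10 of the 20 cytosolic genes at least 3 deficient libraries lay above all normal-diet libraries, where 10.4% of all tested genes did so. In 2 of the 20, Rars and Farsb, all 5 did, where 0.835% of all tested genes were separated in this way. No member had all 5 below, where 0.812% of all tested genes did.

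**Figure D2:**
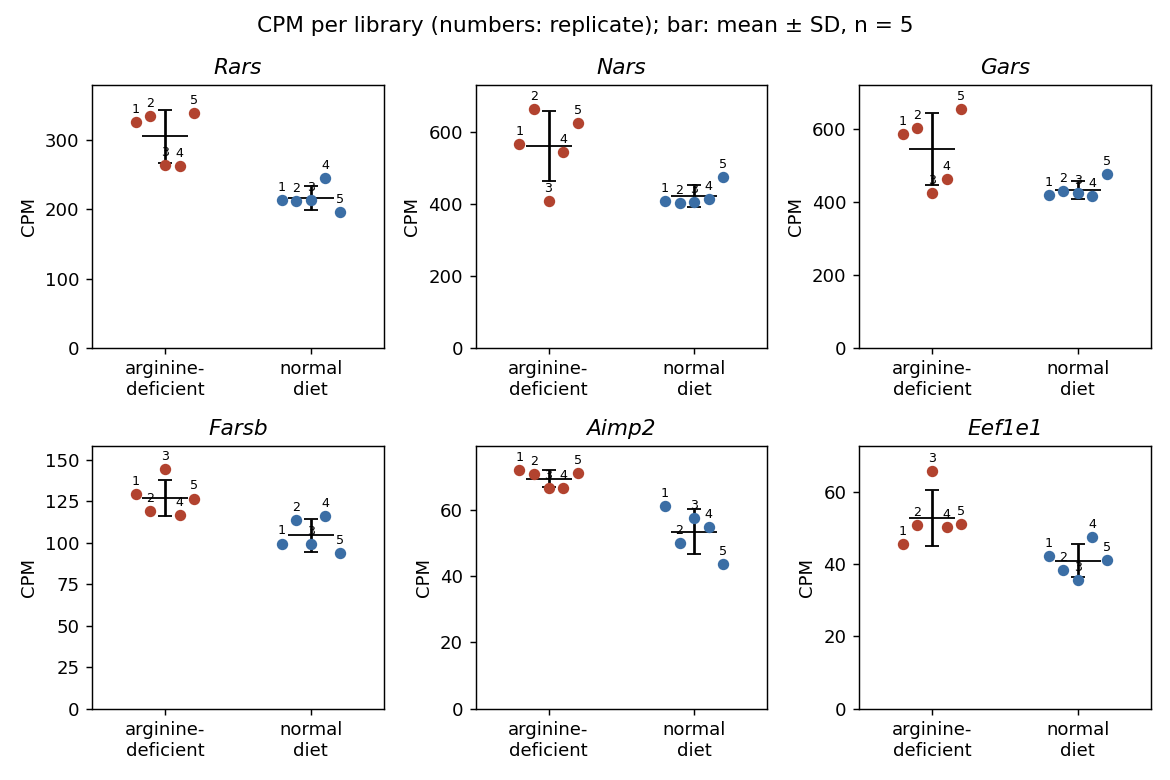
CPM of 6 genes (vertical axis from 0) in each library, with the replicate number beside each point and the mean ± SD of 5 libraries per diet. Deficient libraries lie above all normal-diet libraries for Rars, Farsb and Aimp2; deficient replicate 3 is low for Nars and Gars and highest for Farsb and Eef1e1.

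The scaffold genes gave the other values that stood out. Aimp2, a structural core of the multi-synthetase complex, had 72.0, 70.9, 66.5, 66.6 and 71.1 CPM in the deficient libraries, against 61.3, 49.8, 57.4, 54.9 and 43.7 CPM in the normal-diet libraries. The diets did not overlap, and the deficient libraries were close together at 69.4 ± 2.63 CPM, against 53.4 ± 6.82 CPM for the normal diet (n = 5 each, SD; edgeR adjusted p = 0.390 for a log2 fold change of 0.38, SE 0.11). Of the exonic bases of Aimp2, 29.4% lie inside the body of Eif2ak1, which runs on the opposite strand, and since no source used here gives the strand setting of the counting, reads of the 2 genes cannot be told apart there.

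Eef1e1, whose protein is also called AIMP3, had 45.4, 50.9, 65.9, 50.3 and 51.2 CPM in the deficient libraries, against 42.3, 38.2, 35.6, 47.5 and 41.1 CPM in the normal-diet libraries. All deficient libraries but replicate 1 lay above the normal diet, and replicate 3 was far above its group (edgeR adjusted p = 0.548 for a log2 fold change of 0.37, SE 0.13). Aimp1, the scaffold gene that also gives rise to a secreted cytokine, had 132, 149.7, 107, 127 and 137 CPM in the deficient libraries, against 134, 109.5, 122, 113 and 139 CPM in the normal-diet libraries. Aimp1 overlapped between the diets (edgeR adjusted p = 0.998 for a log2 fold change of 0.08, SE 0.11).

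Grouping by complex gave no clear division of the cytosolic enzymes. The 8 enzymes of the complex (Eprs, Iars, Lars, Mars1, Qars, Rars, Kars and Dars) had 7 higher and a median log2 fold change of 0.12, and the 12 cytosolic genes outside it had 10 higher and a median of 0.26. Enzymes come in 2 classes with unrelated active sites: cytosolic class I genes had 8 of 10 higher with a median of 0.21, and class II genes 10 of 11 with a median of 0.25, Eprs counting in both. The 13 cytosolic genes often reported as ATF4-dependent had 12 higher and a median of 0.24, against 5 of 7 and a median of 0.06 in the other cytosolic genes, to which Rars belongs. None of these groups held a called gene, and the differences between groups were not tested.

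Most cytosolic genes varied together between libraries of the same diet. As a description over 10 libraries, which all genes share, the median Pearson correlation of a gene with the other cytosolic genes, taken on deviations from the mean of each diet, was 0.444 to 0.863 for 17 of 20 genes. Iars (0.142), Dars (-0.349) and Farsb (-0.695) were the exceptions. Set against each gene's mean on the normal diet, the cytosolic median over 20 genes was 0.33, 0.30, -0.28, 0.16 and 0.37 log2 units in deficient replicates 1 to 5, against 0.08, -0.12, -0.05, -0.08 and 0.18 in normal-diet replicates 1 to 5. Deficient replicate 3 thus lay below every normal-diet library, deficient replicate 4 lay inside the normal-diet range, and the other 3 lay above it. The median of the 16 mitochondrial genes was -0.03, -0.06, -0.16, 0.32 and 0.08 in the deficient libraries, against 0.07, -0.09, -0.04, 0.04 and 0.00 in the normal-diet libraries. The scaffold median was 0.16, 0.32, 0.33, 0.31 and 0.33 in the deficient libraries, against 0.12, -0.09, -0.01, 0.05 and 0.01 in the normal-diet libraries, with no overlap. Summed over the 20 cytosolic genes, transcripts made up 6274 ± 1122 CPM in deficient libraries, against 5408 ± 496 CPM in normal-diet libraries, and over the 16 mitochondrial genes 604 ± 50.8 CPM in deficient, against 614 ± 33.9 CPM in normal-diet libraries (n = 5 each, SD).

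**Figure D3:**
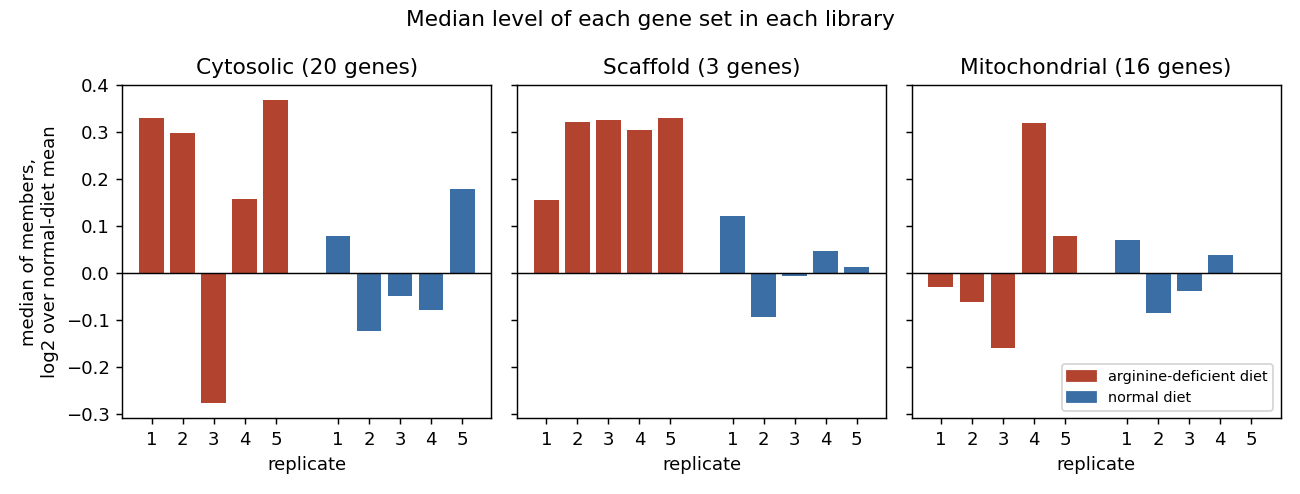
Median over the members of each set of the log2 level relative to that gene's normal-diet mean (vertical axis), for the 5 deficient and the 5 normal-diet libraries. Deficient replicate 3 is at -0.28 for the cytosolic set and 0.33 for the scaffold set; deficient replicate 4 is the highest library of the mitochondrial set at 0.32.

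In deficient replicate 3 the members' values varied with their base composition, with exceptions. Libraries differed in how abundance changed with transcript GC content, and the slope was -0.55 log2 units per 10 percentage points in deficient replicate 3, against 0.09 to 0.18 in the other deficient libraries and -0.35 to 0.38 on the normal diet. Compared with the mean of the other 4 deficient libraries, replicate 3 was lower by 1.05 for Aars (53.0% GC), but higher by 0.23 for Farsb (46.0% GC) and by 0.41 for Eef1e1 (45.1% GC), in log2 units. Aimp1 (43.0% GC) and Eprs (44.6% GC) had low GC content but were lower, by 0.35 and 0.45. Across the 39 genes, which share the libraries and are not independent, this difference and GC content had a Pearson correlation of -0.62. Within the 20 cytosolic genes it was -0.74, and within the 16 mitochondrial genes -0.76. The scaffold genes had a median GC content of 45.1%, the cytosolic genes 50.2% and the mitochondrial genes 51.8%. The median difference of replicate 3 was -0.56 log2 units for the cytosolic genes and -0.13 for the mitochondrial genes. With the GC and length trends of each library as covariates, the cytosolic median was 0.17 with 16 of 20 genes higher, the mitochondrial median 0.01 and the scaffold median 0.36. The parts that muscle, mitochondrial RNA and base composition have in the values of replicate 3 were not tested.

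**Figure D4:**
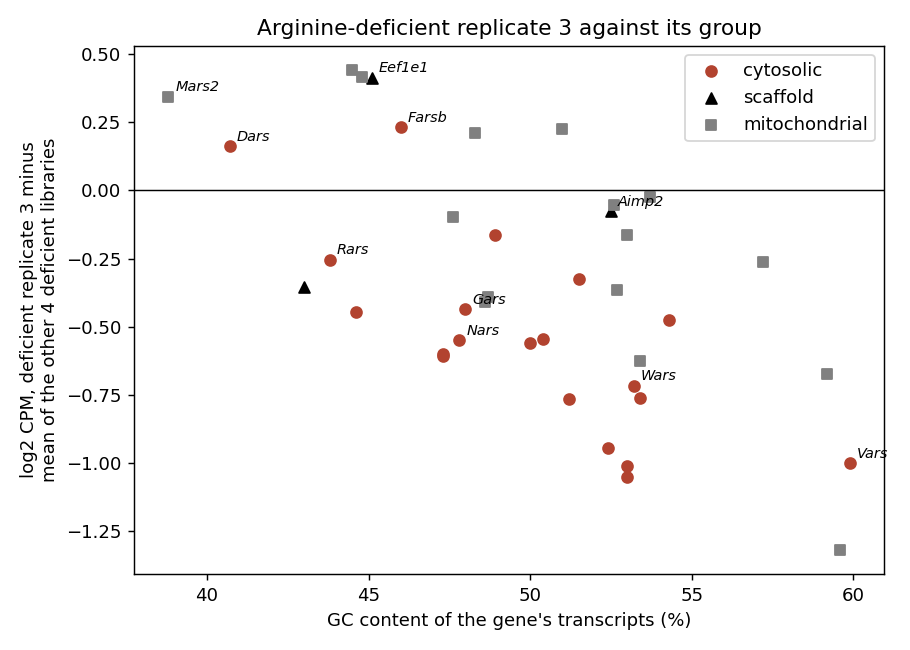
GC content of each gene's transcripts in percent (horizontal axis) against the log2 CPM of deficient replicate 3 minus the mean of the other 4 deficient libraries (vertical axis), 1 point per gene. Cytosolic genes (circles) lie below 0 in 18 of 20 cases; Farsb (46.0% GC) and Dars (40.7% GC) are the other two.

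The mitochondrial enzymes had no shared direction. The methionyl enzyme Mars2 lay highest, with 18.3, 15.1, 21.4, 18.9 and 15.6 CPM in the deficient libraries, against 16.5, 14.7, 12.7, 14.9 and 13.6 CPM in the normal-diet libraries. Deficient replicates 1, 3 and 4 exceeded all normal-diet libraries (edgeR adjusted p = 0.738 for a log2 fold change of 0.30, SE 0.14), and the log2 fold change was 0.19 without the 3 libraries richest in muscle transcripts. The phenylalanyl enzyme Fars2 had 23.9, 19.4, 18.9, 24.0 and 17.95 CPM in the deficient libraries, against 27.2, 24.9, 27.2, 21.7 and 27.3 CPM in the normal-diet libraries, and it was the 1 member with an unadjusted p under 0.05 that was lower. Its groups overlapped only through normal-diet replicate 4 (edgeR adjusted p = 0.702 for a log2 fold change of -0.30, SE 0.13), and 22.8% of its exonic bases lie inside other genes.

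The prolyl enzyme Pars2 had 3.55, 5.33, 4.40, 4.49 and 5.12 CPM in the deficient libraries, against 6.53, 4.59, 5.37, 4.19 and 10.8 CPM in the normal-diet libraries. Its mean CPM was the lowest of the 39 members on both diets. Per kilobase of exonic length, Mars2 and Nars2 were lower than Pars2 on the normal diet. Normal-diet replicate 5 lay well above the rest for Pars2 (edgeR adjusted p = 0.856 for a log2 fold change of -0.45, SE 0.26), and without that library the log2 fold change was -0.18. Lars2, the leucyl enzyme, had a log2 fold change of -0.32 (SE 0.23) that dropped to -0.03 without normal-diet replicate 5. The other 12 lay between 0.15 and -0.10 on the same scale: Hars2, Nars2, Yars2, Cars2, Wars2, Sars2 and Ears2 above 0, and Rars2, Iars2, Aars2, Tars2 and Vars2 below it. For Vars2, 57.1% of exonic bases lie inside the body of the antisense gene Gm20483.

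Cytosolic transcripts were the more abundant of each pair for the same amino acid. Per kilobase of exonic length, the 20 cytosolic genes ran from 19.5 (Qars) to 175 CPM (Gars) on the deficient and from 17.2 (Yars) to 139 CPM (Gars) on the normal diet. The 16 mitochondrial genes ran from 1.48 (Pars2) to 15.5 CPM (Tars2) on the deficient and from 1.28 (Mars2) to 16.4 CPM (Tars2) on the normal diet, so that the sets did not overlap. In 16 pairs by amino acid, the per-length ratio of the cytosolic to the mitochondrial gene was on average higher on the deficient diet in 14, by a median of 0.22 log2 units, but in none were the diets separated. The ratio for asparagine was the largest, 68.7 ± 22.8 on the deficient and 62.1 ± 33.3 on the normal diet, and that for threonine was among the smallest, 3.39 ± 0.516 and 2.70 ± 0.322 (SD, n = 5 each).

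**Figure D5:**
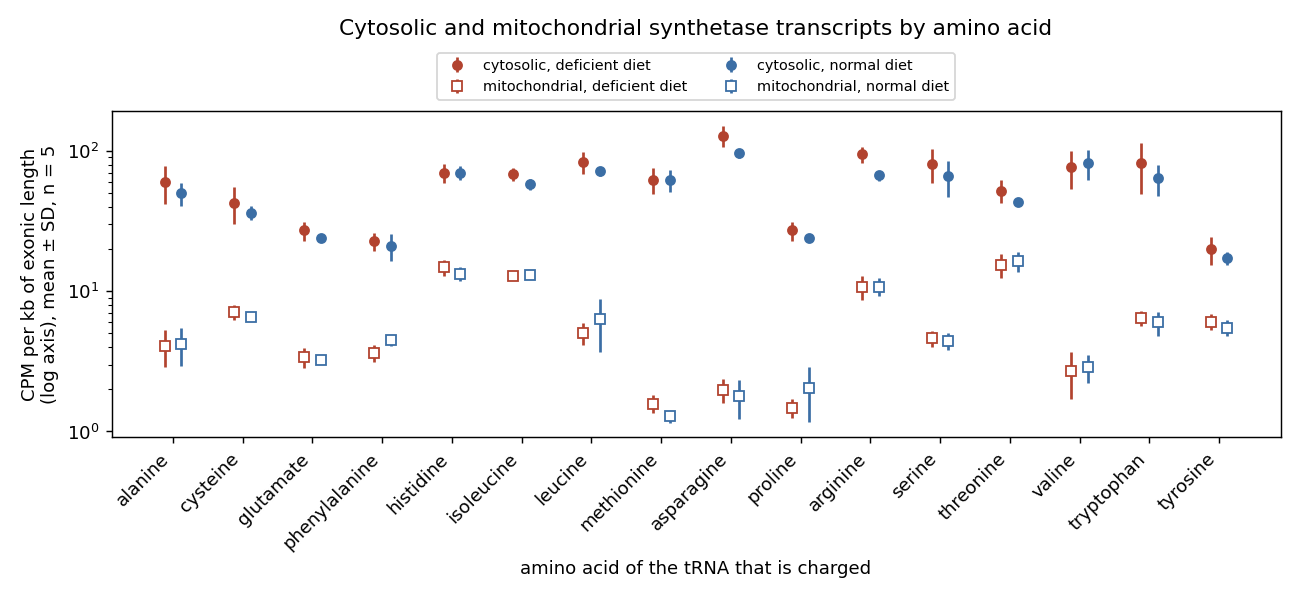
CPM per kilobase of exonic length (log axis, mean ± SD of 5 libraries) of the cytosolic gene (circles) and the mitochondrial gene (squares) for each of 16 amino acids, deficient diet left of normal diet; Eprs stands for both glutamate and proline, and Farsa for phenylalanine. Every circle lies above the square of its amino acid.

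ATF4 pairs with C/EBP proteins on DNA elements with the core TGATGNAA, which was searched on both strands from 250 bases before to 50 bases after gene starts. The RefSeq promoter table (GRCm38.p6) held 30 of the 39 genes, 13 cytosolic, 14 mitochondrial and 3 scaffold; Rars, Nars and Wars are among those not in it. The core was found in 5 of the 13 cytosolic genes (38.5%) and in 0 of the 14 mitochondrial and 0 of the 3 scaffold genes, where 4.51% of the 27025 genes of the table held it. The separate motif TGACGTCA, searched in the same way, was in none of the 30 and in 2.03% of all genes. These are matches of letters and not measured binding. The 5 genes are Gars, Aars, Tars, Iars and Yars, with log2 fold changes of 0.33, 0.27, 0.25, 0.24 and 0.21; Sars and Farsb, at 0.30 and 0.28, had no match in this window.

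Matched sites of 4 of the 5 genes are shown as examples of where the core lies relative to the start. Each line gives 30 bases, 5′ to 3′ on the strand of the gene, with the core in capitals; TTGCATCA and TTTCATCA are the core read from the opposite strand.
Gars, chr6:55037960-55037989, plus strand: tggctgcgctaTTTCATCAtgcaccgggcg
Tars, chr15:11399655-11399684, minus strand: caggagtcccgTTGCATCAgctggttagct
Iars, chr13:49682126-49682155, plus strand: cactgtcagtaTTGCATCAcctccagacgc
Yars, chr4:129189895-129189924, plus strand: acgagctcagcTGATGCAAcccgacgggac
Counting the start as base 1, the first capital letter is at -30 in Gars, at -15 in Tars, at 8 in Iars and at 4 in Yars.

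Aars, the alanyl enzyme, had 583, 735, 297, 515 and 653 CPM in the deficient libraries, against 501, 370.2, 457, 398 and 587 CPM in the normal-diet libraries. Deficient replicates 2 and 5 exceeded the normal diet and replicate 3 was the lowest of all 10 (edgeR adjusted p = 0.949 for a log2 fold change of 0.27, SE 0.22). The log2 fold change was 0.15 without deficient replicate 2 and 0.43 without deficient replicate 3.

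Lists of genes that work beside the synthetases give the members' values a setting. Of 29 tested ATF4 targets that are not synthetases, a list that includes Atf4 itself, 28 were higher (50.3% of all tested genes were). EdgeR called 2 of them, Pycr1 and Aldh1l2, where 0.0541% of all tested genes were called. At an unadjusted p under 0.05, 16 were higher, where 3.54% of all tested genes were. Their median log2 fold change was 0.43. The synthetases most often reported as ATF4-dependent had a median of 0.24 and none called, and the difference between the lists was not tested. Asns, which makes asparagine, had 0.57 (SE 0.14, adjusted p = 0.283 by edgeR). Of 10 tested genes of tRNA export and quality control, 8 were higher and none was called, with a median of 0.06. The nuclear exporters Xpo5 (edgeR adjusted p = 0.465 for a log2 fold change of 0.36, SE 0.11) and Xpot, which carries tRNA (0.22, SE 0.09, adjusted p = 0.701 by edgeR), had the smallest p there.

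Other lists of genes for translation and for making charged tRNA showed medians near 0. A list of cytosolic elongation factors and related genes had 6 of 9 higher (median log2 fold change 0.05). The smallest p there belonged to Eef2k (0.41, SE 0.19), the gene of a kinase and not of an elongation factor. Eef1g (0.18, SE 0.15) and Gtpbp2 (0.31, SE 0.27) followed. Among the factors themselves, Eef1a1 and Eef1b2 were both at 0.05, Eef1d was at -0.13 and Eef2 at -0.21. Mitochondrial amidotransferase subunits and translation factors had 8 of 12 higher (median 0.05), led by Qrsl1 (0.23, SE 0.12), and the selenocysteine route 3 of 5 higher (median 0.02). Cytosolic ribosomal protein genes had 31 of 71 higher (median -0.05) and mitochondrial ribosomal protein genes 34 of 72 (median -0.02). No gene of these 5 lists was called by edgeR, where 0.0541% of all tested genes were. An unadjusted p under 0.05 was found for 1, a mitochondrial ribosomal protein gene, where 6.74% of all tested genes had one. Some listed genes had 0 counts in every library and so were left out. They were 3 cytosolic ribosomal protein genes (Rpl35, Rpl13 and Rpl35a), 5 mitochondrial ones, Gatb and Pstk. In the lists described before, Slc7a5 (ATF4 targets), Irf8 (interferon gamma response) and Aarsd1 (tRNA quality) were also at 0. The reason was not tested.

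On the mm10 build, in GENCODE M21, Rars (ENSMUSG00000018848.4) spans positions 35808381 to 35834506 of chromosome 11 on the minus strand, and Rars2 (ENSMUSG00000028292.14) spans 34614957 to 34660167 of chromosome 4 on the plus strand. Gars (ENSMUSG00000029777.10) lies at 55038007 to 55079500 of chromosome 6, Farsb (ENSMUSG00000026245.16) at 78417975 to 78488897 of chromosome 1 and Wars (ENSMUSG00000021266.16) at 108860030 to 108894174 of chromosome 12. Aimp2 (ENSMUSG00000029610.13) lies at 143902704 to 143909847 of chromosome 5 and Eef1e1 (ENSMUSG00000001707.8) at 38644207 to 38659058 of chromosome 13. Nars (ENSMUSG00000024587.10) lies at 64499647 to 64516652 of chromosome 18, where Hars and Hars2 stand head to head on opposite strands and overlap at their ends. These are bodies of protein-coding genes, exons and introns together.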

How the data were processed

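Tumour RNA libraries from 10 mice, 5 per diet, were analysed; the titles (Arg, Control) were read as the diets named in the design text, which describes separate animals. The authors deposited raw counts per Ensembl gene; FastQC, STAR and featureCounts on mm10 were used, per the submitters' processing notes, and no source used here gives versions, settings or strandedness. Counts were fitted with edgeR 4.0.16 in R 4.3.3 (TMM factors, filterByExpr with a minimum count of 10 and a total of 15, quasi-likelihood test, diet as the only term), with Benjamini-Hochberg adjustment over 12929 genes and a threshold of 0.05. CPM of synthetase genes use TMM factors, CPM of marker sums and Krt20 use library totals, and the SE is the log2 fold change divided by the root of its F. Symbols, exonic length, overlaps and GC came from GENCODE M21, in which 21379 identifiers matched with version, 437 with another version and 33 not at all. Alternatives were DESeq2 1.42.0, limma 3.58.1 voom, other scalings and filters, a replicate block, library GC and length slopes and each library left out; those leaving out muscle-rich or Gapdh-rich libraries were chosen after seeing the data. Named genes were those with an unadjusted p under 0.05, the arginyl enzymes, Wars, the scaffold genes and the highest and lowest of each compartment; Aars and Lars2 were described after their values were seen. The members and lists were chosen with earlier results of these data known. No 2 libraries agreed within sampling noise. The matched promoter sequence of Aars is not reported here.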

Additional observations from a re-analysis of the deposited data

Results flagged for a closer look

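In 7 of 78 groups of 5 libraries (39 genes on 2 diets), 1 library lay far from the other 4. Chance gives about 1 in 20 groups. The 78 groups share the same 10 libraries and are not independent, so their number cannot be tested against that rate. On the deficient diet, Dars was low in replicate 1 at 101.6 CPM. Replicate 3 of that diet was low for Hars at 124.5 CPM and high for Eef1e1 at 65.86 CPM. On the normal diet all 4 such values were high and from replicate 5: Gars at 476.7 CPM, Nars at 475.5 CPM, Wars at 317.9 CPM and Lars2 at 120.7 CPM.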

How the results depend on the processing

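Over all genes edgeR called 7, and the count moved with the method: 131 by DESeq2 (69 higher, 62 lower), 373 by limma voom (205 higher, 168 lower), 152 with GC and length slopes (78 higher, 74 lower), 1 with the replicate block, 18 without the 3 muscle-rich libraries, 0 without the 2 Gapdh-rich libraries, and 0 to 16 with each library left out. Members called were 0 by edgeR, 1 by DESeq2, 4 by limma voom and 2 with GC and length slopes. Over 22 alternatives the cytosolic median ran from 0.14 (without deficient replicate 2) to 0.366 (without the muscle-rich libraries), the mitochondrial from -0.0237 to 0.0804 and the scaffold from 0.276 (without deficient replicate 3) to 0.384. Vars, at -0.09, turned to 0.13 by limma voom, to 0.07 without the Gapdh-rich libraries, and to 0.06 and 0.02 without deficient replicate 3 and normal-diet replicate 5; with single libraries left out it ran from -0.19 to 0.06. Rars2, at -0.01, turned to 0.04, 0.08, 0.01 and 0.07 without deficient replicates 1 and 2 and normal-diet replicates 2 and 4. The causes were not tested. Same-numbered libraries correlated between -0.349 and 0.183, and 1 of 5 deficient libraries lay closest to its own number. No pairing of mice by number was seen, though a check on 5 libraries per diet cannot exclude it. The block left 0 members called. The 5 libraries per diet limit small differences: the fit had a biological coefficient of variation of 26.5%.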
